A study of Homo sapiens with 4 samples.

Results

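Collagen chain genes were compared between WT cells and ZCCHC4 KO1 cells, both labelled HepG2, a human cell line from a liver tumor, and both untreated. Members were the genes whose RefSeq symbol reads COL, a type number, A and a chain number. The table held 40 of them among 16658 genes. RefSeq names 44 such genes, and the other 4, COL6A3, COL9A1, COL13A1 and COL21A1, were not analysed here. ZCCHC4 KO1 is 1 knockout line made with CRISPR/Cas9, carrying a frameshift in ZCCHC4, which encodes an rRNA N6-methyladenosine methyltransferase. WT is the wild-type line. With 1 knockout line, the loss of ZCCHC4 and other differences of that line from WT cannot be told apart. RNA-seq was done on 2 libraries of each, 4 in all, and the values are FPKM, which correct fragment numbers for transcript length and sequencing yield, so that levels can be compared between genes.

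Collagens are proteins of the extracellular matrix in which chains with repeated Gly-X-Y triplets wind into a helix of several chains. Fibrillar collagens form the banded fibrils of connective tissue, network collagens such as type IV form the sheets of basement membranes, FACIT collagens sit on fibril surfaces, and multiplexins join basement membranes to the tissue beneath. In liver most collagen comes from stellate cells and fibroblasts, while epithelial cells contribute basement membrane chains. The genes were grouped by these structural classes, with type VI, VII, XXVI and XXVIII chains placed in 1 class of beaded filament and anchoring types.

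Library totals and labels were checked first. FPKM summed to 512417.0 and 537436.9 in WT against 565198.6 and 521479.4 in ZCCHC4 KO1, and the read depth is unknown. The targeted gene ZCCHC4 was at 7.22 and 5.44 FPKM in WT against 1.08 and 2.29 in ZCCHC4 KO1 (log2 fold change -1.48, standard error 0.287, adjusted p = 0.0448 from limma). Without ZCCHC4 KO1 replicate 1 its adjusted p from limma was 0.0514. Of 10 hepatocyte markers, 6 were listed and none reached 1 FPKM. These 6 summed to between 0.12 and 0.21 FPKM in each library, and AFP, alpha-fetoprotein, was listed at 0 in 3 of the 4, so the listed defining markers of the labelled cell type were at or near 0. Replicates differed along transcript GC content, with a Spearman correlation between GC and replicate 2 minus replicate 1, over 10559 genes, of 0.706 in WT and -0.764 in ZCCHC4 KO1. Over the 17 tested collagen chain genes, which share these libraries, it was 0.842 and -0.632.

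Most collagen chain genes were hardly expressed, and a few carried most of the signal. In the 4 libraries 17, 17, 14 and 15 of the 40 genes reached 1 FPKM, in the order WT 1, WT 2, ZCCHC4 KO1 1 and ZCCHC4 KO1 2. COL5A1, COL4A2 and COL12A1 had the highest levels and made up 64.5% to 69.1% of the collagen FPKM in each library. Their WT levels lay within each other's spread or close to it, at 70.2 ± 1.08, 63.6 ± 3.58 and 58.0 ± 11.9 FPKM (SD, n = 2 each). The 40 genes summed to 303.16 and 289.37 FPKM in WT against 171.13 and 203.59 in ZCCHC4 KO1, which is 0.0592% and 0.0538% of all FPKM in WT against 0.0303% and 0.039% in ZCCHC4 KO1. Neither ZCCHC4 KO1 sum reached either WT sum.

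**Figure D1:**
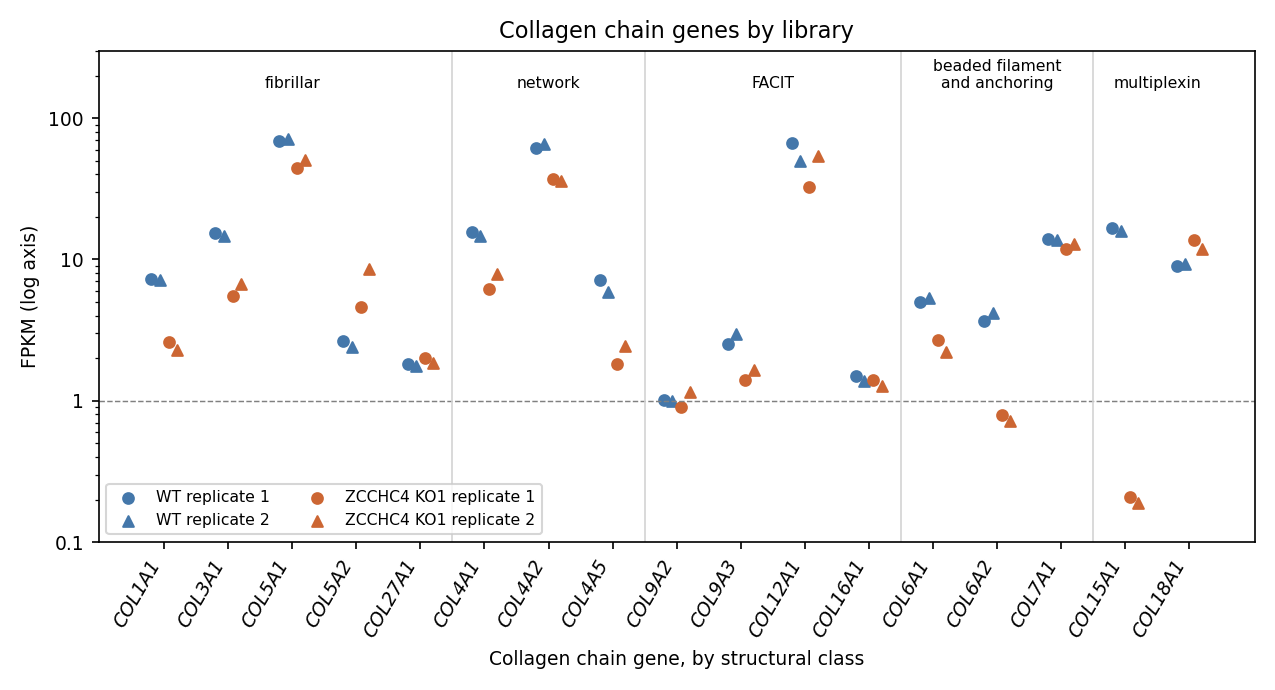
FPKM (log axis) of the 17 tested collagen chain genes in each of the 4 libraries, grouped by structural class, with circles for replicate 1 and triangles for replicate 2. The dashed line marks 1 FPKM; COL15A1 falls from 16.71 and 15.78 in WT to 0.21 and 0.19 in ZCCHC4 KO1, while COL5A2 and COL18A1 lie higher in ZCCHC4 KO1.

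Genes that reached 1 FPKM in at least 2 libraries were tested on log2(FPKM + 1) with limma, over 10726 genes, and called at a Benjamini-Hochberg adjusted p under 0.05. On this scale, changes of genes near 0 come out smaller than they are. Of the 40 collagen chain genes, 17 entered the test. COL15A1 and COL6A2 entered through WT alone, being under 1 FPKM in both ZCCHC4 KO1 libraries. COL15A1, COL6A2, COL1A1, COL3A1, COL4A5, COL4A1 and COL4A2 fell in ZCCHC4 KO1 cells, 7 of 17, where 4.48% of all tested genes fell. Leaving aside COL15A1 and COL6A2, 5 of 15 fell. No collagen chain gene was called higher by limma, where 1.5% of all tested genes were called higher, and 2 (COL5A2 and COL18A1) were higher at an unadjusted p under 0.05. Over the 17 genes, the median log2 fold change was -0.57, and -0.56 without COL15A1 and COL6A2, beside -0.03 over all tested genes. In 11 of 17 the ZCCHC4 KO1 libraries both lay under the lower WT library, and in 3 both lay over the higher one, against 28.5% and 23.1% of all tested genes. COL15A1 and COL6A2 are among the 11, and for them the filter fixed this order in advance. The shares over all tested genes keep any gene that passed the filter through 1 group alone. At the stricter thresholds of an FDR below 0.001 with at least 2-fold change, limma called 0 collagen chain genes in either direction. There 0.0559% of all tested genes were lower and 0.0186% higher. At an unadjusted p under 0.05 from limma, 10 collagen chain genes were lower and 2 higher. The share of all tested genes at an unadjusted p under 0.05 was not taken, so these counts have no background. With no filter on low values, COL15A1 and COL6A2 were the 2 collagen chain genes still called lower, where 1.57% of all genes were, and none was called higher (0.492% of all genes).

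**Figure D2:**
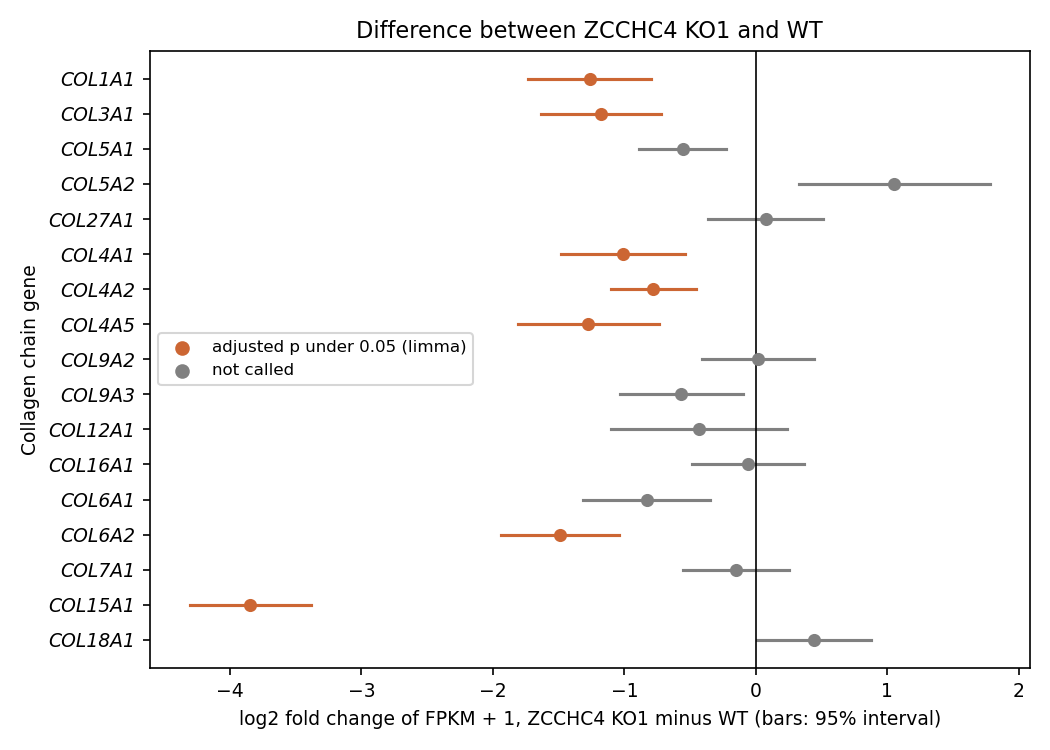
log2 fold change of FPKM + 1 in ZCCHC4 KO1 minus WT for the 17 tested collagen chain genes, with 95% intervals from limma; orange marks the 7 genes called lower. COL15A1 stands apart at -3.85 and COL5A2, at 1.05, lies farthest to the other side without being called.

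COL15A1, the multiplexin chain of type XV collagen, a proteoglycan that lies just outside basement membranes, showed the largest fold difference of the tested collagen chain genes. It stood at 16.71 and 15.78 FPKM in WT against 0.21 and 0.19 in ZCCHC4 KO1. The groups were far apart and the replicates close, with means of 16.2 ± 0.658 and 0.200 ± 0.0141 FPKM (SD, n = 2 each), an 81.2-fold difference. The log2 fold change was -3.85 (standard error 0.186, adjusted p = 0.0013 from limma). COL15A1 passed the filter through WT alone, and with no filter on low values its adjusted p from limma was 0.0242. It was not called at the FDR below 0.001. Over the alternative analyses, which all reuse these libraries, its log2 fold change lay between -5.77 and -3.62. COL15A1 lies on chromosome 9 of GRCh38 from 98943907 to 99070787. The median log2 fold change of its 20 nearest tested genes was -0.19, with 14 lower.

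COL18A1, the other multiplexin and the source of the angiogenesis inhibitor endostatin, differed in the opposite direction. It was at 8.96 and 9.28 FPKM in WT against 13.69 and 11.87 in ZCCHC4 KO1. Both ZCCHC4 KO1 libraries were above both WT libraries, but the log2 fold change of 0.44 did not pass the test (95% interval 0.01 to 0.88, adjusted p = 0.212 from limma). The FPKM of COL15A1 divided by that of COL18A1 was 1.86 and 1.70 in WT against 0.0153 and 0.016 in ZCCHC4 KO1. Thus type XV chain RNA was above type XVIII in WT and far below it in ZCCHC4 KO1.

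Type IV collagen, the network of basement membranes, has 6 chain genes that lie head to head in 3 pairs, COL4A1 with COL4A2 on chromosome 13, COL4A3 with COL4A4 on chromosome 2 and COL4A5 with COL4A6 on chromosome X. All 6 were lower in both ZCCHC4 KO1 libraries than in both WT libraries. For the 3 of them that were tested, the share of all tested genes with this order was 28.5%. For genes under the filter, such as the others, no such share was taken. Both members were called lower by limma only in the pair of COL4A1 and COL4A2. Whether the region shared by a pair has a part in the differences was not tested. Stretches are shown between the gene pairs, whose members start from opposite sides of a short region, and before COL15A1, for the largest difference. They are the bases before the annotated start of COL4A2, COL4A3, COL4A5 and COL15A1, on the plus strand of GRCh38.p14 from RefSeq, at chr13:110307158-110307283, chr2:227164489-227164623, chrX:108439588-108439837 and chr9:98943657-98943906. Capitals mark matches, on either strand, to the GC box GGGCGG or the CCAAT box.
COL4A1 and COL4A2: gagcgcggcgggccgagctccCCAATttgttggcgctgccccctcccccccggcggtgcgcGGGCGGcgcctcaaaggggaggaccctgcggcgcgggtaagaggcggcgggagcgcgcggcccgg
COL4A3 and COL4A4: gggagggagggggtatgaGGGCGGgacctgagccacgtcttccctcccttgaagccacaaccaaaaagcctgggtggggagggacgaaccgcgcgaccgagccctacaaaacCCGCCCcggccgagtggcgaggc
COL4A5 and COL4A6: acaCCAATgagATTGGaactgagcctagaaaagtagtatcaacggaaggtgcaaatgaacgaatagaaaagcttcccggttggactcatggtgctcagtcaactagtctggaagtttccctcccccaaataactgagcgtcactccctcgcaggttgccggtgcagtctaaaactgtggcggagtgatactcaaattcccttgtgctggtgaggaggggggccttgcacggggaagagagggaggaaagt
COL15A1: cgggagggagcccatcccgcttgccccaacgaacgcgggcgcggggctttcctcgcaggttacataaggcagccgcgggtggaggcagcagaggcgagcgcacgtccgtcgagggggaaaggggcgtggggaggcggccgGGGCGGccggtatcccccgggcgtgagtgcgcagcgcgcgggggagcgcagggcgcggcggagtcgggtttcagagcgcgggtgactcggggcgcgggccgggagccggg
The first and second stretches fill the whole gap between the gene spans, 126 and 135 bases, and the third holds the 250 bases next to COL4A5 of a gap of 379.

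These stretches differed in composition. That between COL4A1 and COL4A2 was 80.2% G and C and held 20 CpG, a number reached by 5.78% of all RefSeq promoter windows of that length, with 1 GC box and 1 CCAAT box. Between COL4A3 and COL4A4 there were 2 GC boxes and no CCAAT box, with 68.1% G and C. The 250 bases before COL4A5 were 51.2% G and C and held 2 CCAAT boxes, on opposite strands, and no GC box. The 250 bases before COL15A1 held 38 CpG, reached by 3.28% of windows, and 1 GC box. None of the 4 held the TATA box TATAAA on either strand. Among 35116 RefSeq windows, a GC box is found in 34.6% of windows of 126 bases, 35.5% of 135 bases and 42.6% of 250 bases, and a CCAAT box in 21.1%, 22.1% and 32.0%. The TATA box is found in 5.87%, 6.13% and 10.7%. The matches describe the letters of these windows and no binding was measured.

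Of 9 network collagen genes 3 were tested, COL4A1, COL4A2 and COL4A5, and each fell, where 4.48% of all tested genes fell. COL4A1 and COL4A2 encode the chains found in nearly all basement membranes. COL4A2 was at 61.11 and 66.17 FPKM in WT against 37.16 and 36.08 in ZCCHC4 KO1, a 1.74-fold difference (log2 fold change -0.78, standard error 0.130, adjusted p = 0.0298 from limma). COL4A1 was at 15.66 and 14.55 FPKM in WT against 6.2 and 7.87 in ZCCHC4 KO1, a 2.15-fold difference (log2 fold change -1.01, standard error 0.192, adjusted p = 0.0422 from limma). In both genes the groups did not overlap. COL4A1 RNA was below COL4A2 RNA in every library, at a ratio of 0.256 and 0.22 in WT against 0.167 and 0.218 in ZCCHC4 KO1, ranges that nearly meet. Neither call held without WT replicate 1, where the adjusted p from limma was 0.293 for COL4A1 and 0.147 for COL4A2, or without WT replicate 2 (0.194 and 0.255), and that of COL4A1 was 0.0618 without ZCCHC4 KO1 replicate 1. COL4A2 also missed the threshold with median-ratio scaling (adjusted p = 0.053 from limma) and without the variance trend (0.0535).

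COL4A5, whose chain joins those of COL4A3 and COL4A4 in the glomerular basement membrane of the kidney, was at 7.21 and 5.88 FPKM in WT against 1.81 and 2.44 in ZCCHC4 KO1, a 3.08-fold difference. The log2 fold change was -1.27 (standard error 0.217, adjusted p = 0.0319 from limma). The call was lost without WT replicate 1 (adjusted p = 0.139 from limma). On chromosome X the 20 tested genes nearest to COL4A5 were at a median of -0.32 on the log2 scale, with 17 lower, which is lower than for any other called collagen chain gene. Whether the neighbours have a part in the COL4A5 difference was not tested.

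The remaining type IV chains, which are restricted to fewer tissues, stayed under 1 FPKM in every library and were not tested. COL4A6 was at 0.69 and 0.45 FPKM in WT against 0.05 and 0.12 in ZCCHC4 KO1. COL4A4 was at 0.89 and 0.87 in WT against 0.2 and 0.51 in ZCCHC4 KO1. COL4A3 was at 0.6 and 0.53 in WT against 0.22 and 0.32 in ZCCHC4 KO1. In each of them the groups were apart, at levels where single reads weigh heavily. With no filter on low values their adjusted p from limma were 0.0857, 0.167 and 0.124. COL8A1, a network chain of vascular matrix, was at 0.12 and 0.25 FPKM in WT and listed at 0 in both ZCCHC4 KO1 libraries. The 6 type IV chains together summed to 86.16 and 88.45 FPKM in WT against 45.64 and 47.34 in ZCCHC4 KO1.

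**Figure D3:**
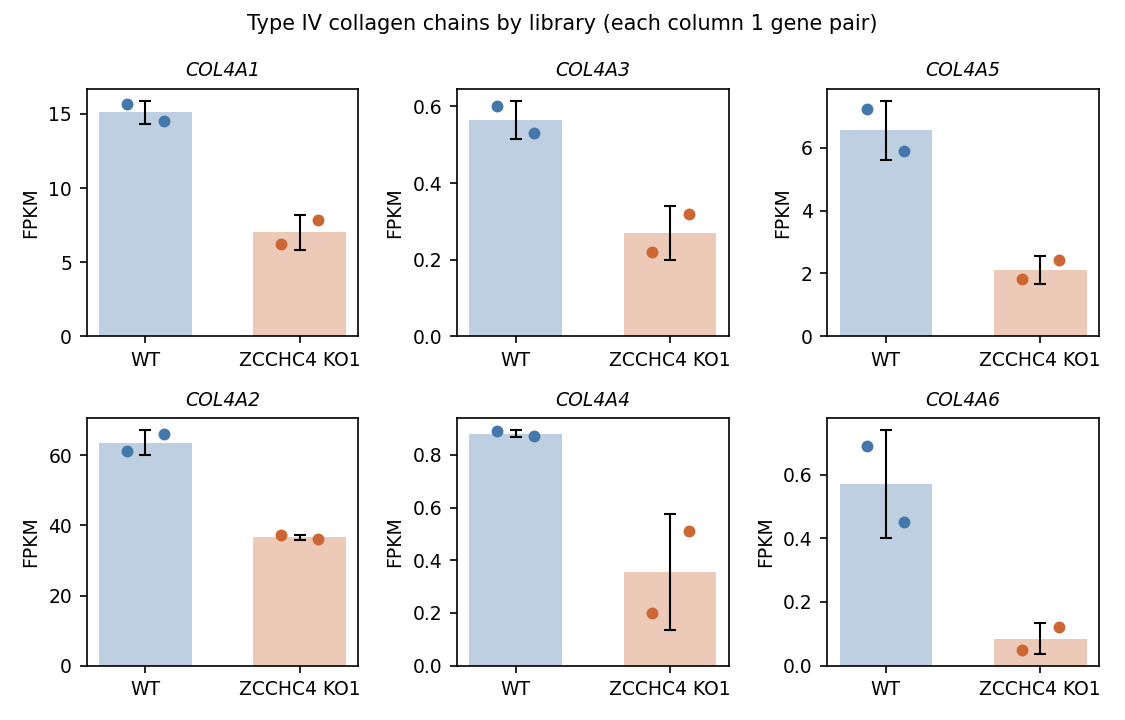
FPKM of the 6 type IV collagen chain genes, each column of panels holding the genes of 1 head-to-head pair; points are libraries, bars the mean of 2 and error lines the SD. In every panel both ZCCHC4 KO1 points lie below both WT points, an order that 28.5% of all tested genes had. The difference runs from 1.74-fold in COL4A2 to 6.71-fold in COL4A6. COL4A3, COL4A4 and COL4A6 are under 1 FPKM throughout and were not tested.

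Among the fibrillar collagens, 5 of 11 genes were tested and 2, COL1A1 and COL3A1, fell, where 4.48% of all tested genes fell. COL1A1, the main chain of type I collagen, was at 7.28 and 7.19 FPKM in WT against 2.59 and 2.28 in ZCCHC4 KO1, a 2.97-fold difference with no overlap (log2 fold change -1.26, standard error 0.189, adjusted p = 0.0235 from limma). Its partner in the usual type I trimer, COL1A2, was listed at 0 throughout WT and at 0.01 throughout ZCCHC4 KO1. RNA of the second type I chain was thus almost missing in either group. COL3A1, the sole chain of type III collagen, was at 15.44 and 14.76 FPKM in WT against 5.54 and 6.75 in ZCCHC4 KO1, 2.46-fold apart (log2 fold change -1.18, standard error 0.185, adjusted p = 0.0263 from limma). Without WT replicate 1 the adjusted p from limma was 0.0909 for COL1A1 and 0.147 for COL3A1, and without WT replicate 2 it was 0.0597 and 0.109.

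Type V collagen seeds fibrils and sets their diameter. COL5A1, the most abundant collagen chain gene in WT, was at 69.47 and 71 FPKM in WT against 44.64 and 50.31 in ZCCHC4 KO1 (log2 fold change -0.56, adjusted p = 0.073 from limma). COL5A2, its partner chain, was at 2.65 and 2.39 FPKM in WT against 4.58 and 8.52 in ZCCHC4 KO1 (log2 fold change 1.05, standard error 0.294, adjusted p = 0.103 from limma). Groups did not overlap in either gene, in opposite directions, and neither passed the test. For COL5A2 the 2 ZCCHC4 KO1 libraries were themselves far apart, with a mean of 6.55 ± 2.79 FPKM (SD, n = 2). The adjusted p of COL5A2 from limma was 0.0291 with the GC trend removed and 0.0151 with quantile normalization. With the replicate number as a block it was 0.145, and with no filter on low values 0.197. With median-ratio scaling it was 0.000713, in a fit that rests mostly on variance pooled over genes (prior degrees of freedom 72.4, against 3.78 in the main fit). The log2 fold change of COL5A2 was 1.44 without ZCCHC4 KO1 replicate 1 and 0.67 without replicate 2. For COL5A1 the adjusted p from limma was 0.0296 with the GC trend removed and 0.0353 with quantile normalization. With the replicate number as a block it was 0.364, and with no filter on low values 0.0994. The log2 fold change of COL5A1 was -0.47 without ZCCHC4 KO1 replicate 1 and -0.64 without replicate 2. The ratio of COL5A1 to COL5A2 was 26.2 and 29.7 in WT against 9.75 and 5.9 in ZCCHC4 KO1. COL3A1 and COL5A2 lie 19151 bases apart on chromosome 2, and the ratio of COL3A1 to COL5A2 was 5.83 and 6.18 in WT against 1.21 and 0.792 in ZCCHC4 KO1. COL27A1, a fibrillar chain of cartilage, was at 1.81 and 1.76 FPKM in WT against 2 and 1.86 in ZCCHC4 KO1. Its log2 fold change of 0.07 had a 95% interval from -0.36 to 0.51, and with the GC trend removed it was -0.05.

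Of 7 listed beaded filament and anchoring genes 3 were tested and COL6A2 fell, where 4.48% of all tested genes fell. Type VI collagen forms beaded microfilaments around cells from COL6A1, COL6A2 and a further long chain. COL6A2 was at 3.67 and 4.2 FPKM in WT against 0.79 and 0.72 in ZCCHC4 KO1, a 5.21-fold difference (log2 fold change -1.49, standard error 0.183, adjusted p = 0.0142 from limma). It passed the filter through WT alone, and with no filter on low values its adjusted p from limma was 0.0443. It was not called at the FDR below 0.001, and with a minimum of 5 FPKM it was not tested. Over the alternative analyses, which all reuse these libraries, its log2 fold change lay between -2.24 and -1.34. COL6A1 was at 4.98 and 5.31 FPKM in WT against 2.69 and 2.23 in ZCCHC4 KO1, which did not pass (log2 fold change -0.83, standard error 0.194, adjusted p = 0.0707 from limma). COL6A1 had adjusted p of 0.0232 with median-ratio scaling and 0.01 with the GC trend removed, both from limma. It missed the threshold with quantile normalization (adjusted p = 0.0989 from limma) and with the replicate number as a block (0.353). The ratio of COL6A1 to COL6A2 RNA was 1.36 and 1.26 in WT against 3.41 and 3.10 in ZCCHC4 KO1. COL6A1, COL6A2 and COL18A1 lie close together on chromosome 21, where the 20 tested genes nearest to COL6A1 were at a median of 0.15 on the log2 scale. COL7A1, the chain of the anchoring fibrils that fasten epithelium to the stroma, was at 13.94 and 13.64 FPKM in WT against 11.8 and 12.82 in ZCCHC4 KO1. Its log2 fold change was -0.15, with a 95% interval from -0.56 to 0.25.

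No FACIT gene was called by limma, where 4.48% of all tested genes were called lower and 1.5% higher. Of the 8 listed genes 4 were tested, and 1, COL9A3, was lower at an unadjusted p under 0.05. COL12A1, which coats fibrils, was at 66.43 and 49.57 FPKM in WT against 32.84 and 54.21 in ZCCHC4 KO1, so the groups overlapped (log2 fold change -0.43, 95% interval -1.10 to 0.24, adjusted p = 0.413 from limma). Its transcript has 46.3% G and C, the lowest of the 17 tested genes, and its libraries differed within each group in the direction of the GC trend. Without ZCCHC4 KO1 replicate 2 its log2 fold change was -0.79 (adjusted p = 0.0251 from limma), and without ZCCHC4 KO1 replicate 1 it was -0.08. COL9A3, a chain of the cartilage collagen type IX, was at 2.53 and 2.97 FPKM in WT against 1.41 and 1.65 in ZCCHC4 KO1 (log2 fold change -0.57, adjusted p = 0.149 from limma). With the GC trend removed the adjusted p of COL9A3 from limma was 0.0496, and with quantile normalization it was 0.204. On chromosome 20 the median of its 20 nearest tested genes was -0.31 on the log2 scale, with 16 lower. COL16A1, a minor FACIT chain, was at 1.49 and 1.39 FPKM in WT against 1.41 and 1.27 in ZCCHC4 KO1. The other type IX chain, COL9A2, stood at the edge of the filter at 1.02 and 1 FPKM in WT against 0.91 and 1.16 in ZCCHC4 KO1, just above COL4A4, the highest gene left out.

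The remaining members were near the floor of the table. Of the 23 genes not tested, 18 were under 0.1 FPKM in every library, and the highest were COL4A4 and COL4A3. All 3 listed transmembrane collagens, COL17A1, COL23A1 and COL25A1, were at or below 0.06 FPKM. COL11A2, a cartilage fibril chain, was at 0.18 and 0.1 FPKM in WT against 0.09 and 0.1 in ZCCHC4 KO1. COL2A1, the main cartilage chain, did not exceed 0.01 FPKM.

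Collagen chains are hydroxylated and folded in the endoplasmic reticulum, carried out in large vesicles, trimmed by proteinases, cross-linked, bound by receptors and finally degraded. Of 98 genes chosen for these steps, 92 had values and 60 were tested. MEP1A, MMP1, MMP8, MMP16, ASPN and NID1 were not analysed here. Of the 60 genes 13 fell while 1 rose in ZCCHC4 KO1, against 4.48% and 1.5% of all tested genes. The median log2 fold change of the 60 was -0.40, beside -0.03 over all tested genes. FAP and PCOLCE entered the test through WT alone, and of the other 58 genes 12 fell. With no filter on low values 9 pathway genes were called lower, where 1.57% of all genes were. HSPA5, CRTAP, CREB3L2, ADGRG1, ITGB1 and FAP then lost their calls (adjusted p from limma between 0.0522 for ADGRG1 and 0.112 for CREB3L2). LOXL2, FKBP10, TGFBI, CTSB, MRC2, PXDN and P3H2 kept theirs, and the rest of the 9 were not among the 13 called with the filter. Without the variance trend 10 were called lower, where 4.21% of all tested genes were, and HSPA5, ITGB1 and CREB3L2 lost their calls.

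Among 19 tested genes for modification and folding, 4 fell and none was called higher, against 4.48% and 1.5% of all tested genes. The median log2 fold change of these 19 was -0.49. FKBP10, a prolyl isomerase of the endoplasmic reticulum, was at 84.11 and 88.64 FPKM in WT against 34.66 and 32.02 in ZCCHC4 KO1 (log2 fold change -1.35, adjusted p = 0.0078 from limma). P3H2, which hydroxylates prolines of type IV collagen in particular, was at 21.8 and 22.1 FPKM in WT against 8.13 and 8.18 in ZCCHC4 KO1 (log2 fold change -1.33, adjusted p = 0.0133 from limma). CRTAP, a partner of prolyl 3-hydroxylase 1, was at 44.57 and 46.8 FPKM in WT against 24.9 and 26.56 in ZCCHC4 KO1 and fell by 0.81 on the log2 scale (adjusted p = 0.0306 from limma), a call lost without WT replicate 1 (0.178) and without WT replicate 2 (0.245). HSPA5, the general chaperone BiP, was the fourth and was lost without either WT replicate as well (adjusted p = 0.152 without replicate 1 and 0.0551 without replicate 2, from limma). SERPINH1, the collagen chaperone HSP47, was not called, at 84.23 and 93.41 FPKM in WT against 127.21 and 101.86 in ZCCHC4 KO1. It was named after its values were seen.

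For secretion, 1 of 13 tested genes fell, where 4.48% of all tested genes fell, and 1 gene is too few to set this list apart. That gene was CREB3L2, a transcription factor for the coat proteins of secretory vesicles, at 21.84 and 20.18 FPKM in WT against 5.86 and 10.33 in ZCCHC4 KO1 (log2 fold change -1.32, adjusted p = 0.0499 from limma). Without WT replicate 1 its adjusted p was 0.0554, and with a pseudocount of 0.1 it was 0.0526.

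Of 9 tested genes for processing and cross-linking, 2 fell, where 4.48% of all tested genes fell. PXDN, peroxidasin, which makes the sulfilimine cross-links of type IV collagen, was at 28.14 and 28.01 FPKM in WT against 5.27 and 5.44 in ZCCHC4 KO1 (log2 fold change -2.19, standard error 0.161, adjusted p = 0.0044 from limma). LOXL2, a lysyl oxidase that also acts on type IV collagen, was at 88.87 and 96.62 FPKM in WT against 38.35 and 34.68 in ZCCHC4 KO1 (log2 fold change -1.32, standard error 0.134, adjusted p = 0.009 from limma). In both genes the replicates were close and the groups far apart.

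Among 7 tested collagen receptors, 3 fell, where 4.48% of all tested genes fell. ADGRG1, an adhesion receptor for type III collagen, was at 10.1 and 9.93 FPKM in WT against 1.83 and 2.75 in ZCCHC4 KO1 (log2 fold change -1.76, adjusted p = 0.0151 from limma). MRC2, an endocytic receptor that takes up collagen fragments, was at 54.65 and 59.5 FPKM in WT against 26.82 and 27.64 in ZCCHC4 KO1 (adjusted p = 0.0153 from limma, and 0.0668 without WT replicate 2). ITGB1, the beta chain of the collagen-binding integrins, was at 166.96 and 105.3 FPKM in WT against 32.86 and 53.94 in ZCCHC4 KO1 (log2 fold change -1.63, adjusted p = 0.041 from limma). The adjusted p of ITGB1 from limma was 0.111 with no filter and 0.0552 without the variance trend. DDR1, the discoidin receptor of epithelia and named after its values were seen, was at 21.53 and 23.83 FPKM in WT against 24.12 and 20.84 in ZCCHC4 KO1.

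Of 4 tested collagen-degrading enzymes, 2 fell, where 4.48% of all tested genes fell. FAP, a serine protease of activated fibroblasts, was at 6.86 and 3.31 FPKM in WT against 0.16 and 0.21 in ZCCHC4 KO1 (log2 fold change -2.30, adjusted p = 0.0174 from limma). Being under 1 FPKM in both ZCCHC4 KO1 libraries, FAP passed the filter through WT alone, and with no filter its adjusted p from limma was 0.0631. CTSB, a lysosomal cysteine protease, was at 65.25 and 67.19 FPKM in WT against 34.52 and 31.23 in ZCCHC4 KO1 (adjusted p = 0.0172 from limma, and 0.0597 without WT replicate 2). Among 8 tested matrix partners, TGFBI, which binds collagens and integrins, fell from 76.07 and 82.63 FPKM to 31.46 and 35.31 (log2 fold change -1.23, adjusted p = 0.0117 from limma). MATN2, a filament-forming matrilin, rose from 9.24 and 7.85 FPKM to 26.49 and 35.09 (log2 fold change 1.73, adjusted p = 0.0127 from limma).

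**Figure D4:**
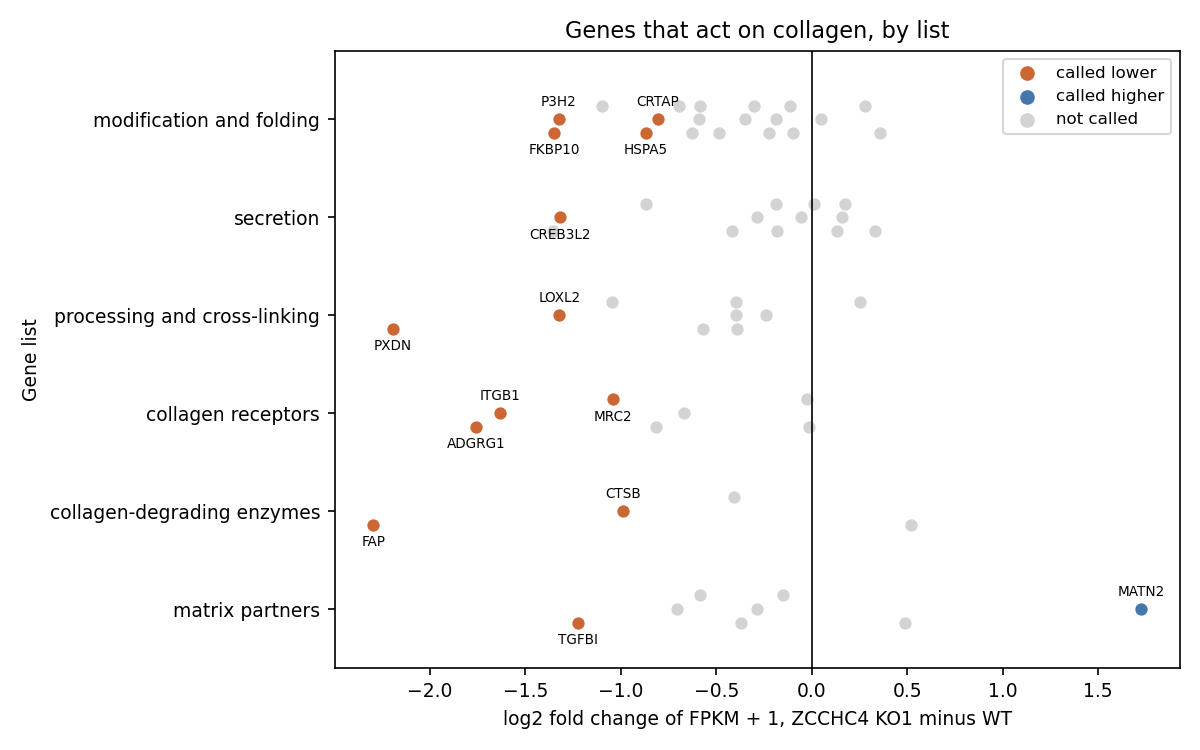
log2 fold change of FPKM + 1 in ZCCHC4 KO1 minus WT for the tested genes of 6 lists of genes that act on or with collagen, 1 point per gene, with called genes named. The 13 genes called lower lie in all 6 lists, with PXDN at -2.19 and FAP, which was tested through its WT level alone and lost its call with no filter, at -2.30. MATN2, at 1.73, is the 1 gene called higher.

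Markers of other cell types were set beside these values. Of 10 fibroblast and stellate cell markers, 8 were listed, and they summed to 13.41 and 9.27 FPKM in WT against 4.72 and 6.35 in ZCCHC4 KO1. Without FAP the other 7 summed to 6.55 and 5.96 FPKM in WT against 4.56 and 6.14 in ZCCHC4 KO1, so the groups overlapped. DCN, decorin, was at 0.91 and 0.82 FPKM in WT against 0 in each ZCCHC4 KO1 library, whereas THY1 did not exceed 0.04 FPKM and PDGFRB was at 1.94 and 2 in WT against 1.25 and 1.23 in ZCCHC4 KO1. LUM, lumican, was at 1.86 and 1.39 FPKM in WT against 1.81 and 3.79 in ZCCHC4 KO1, and RGS5 did not exceed 0.13 FPKM. Of these 8 markers, FAP is also on the list of degrading enzymes and DCN and LUM are on that of matrix partners. Of 8 endothelial markers, 7 were listed, summing to 0.92 and 0.75 FPKM in WT against 0.37 and 0.45 in ZCCHC4 KO1, and VWF and KDR were at or below 0.05. Of 6 epithelial markers, 3 were tested, the keratins KRT7, KRT8 and KRT18, and none was called by limma, with KRT8 and KRT18 higher at an unadjusted p under 0.05. KRT19 and EPCAM did not exceed 0.11 FPKM and CDH1 did not exceed 0.6, and the list summed to 5243.62 and 6095.28 FPKM in WT against 9260.13 and 7069.52 in ZCCHC4 KO1. In bulk RNA, fewer cells of a type and less RNA per cell cannot be told apart, and the part of other cell types in the collagen differences was not tested.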

How the data were processed

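RNA-seq of WT cells and ZCCHC4 KO1 cells was used, with 2 libraries per group. The deposited values are FPKM per gene under Entrez identifiers, which the authors obtained by mapping reads on GRCh38 (Bowtie2) and quantifying them in RSEM. Versions, annotation and read filters are not given in the sources used here. The supplement names the BGISEQ-500 platform and the labels an Illumina HiSeq.

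FPKM values were used as deposited. RefSeq symbols for GRCh38.p14 matched 16384 of 16658 genes. Genes with at least 1 FPKM in at least 2 libraries were put on the log2(FPKM + 1) scale, and the groups were compared by limma 3.58.1, R 4.3.3 (lmFit, eBayes with a trend, Benjamini-Hochberg over 10726 genes), checked on simulated data, and called at an adjusted p under 0.05. FPKM values are no counts, so no count model was fitted, and depth and counting error are unknown. No source ties replicates to separate cultures, so the p-values measure the spread between these libraries, which may be technical. GC content came from the longest GENCODE v44 transcript, for 98.4% of tested genes. A RefSeq promoter window was found for 28 of the 40 genes.

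All collagen chain genes were accounted for. The naming rule took called members, the up to 3 tested members of highest level in each class, the 2 highest untested members, and the up to 3 called genes of smallest p in each pathway list. COL1A2, COL2A1, COL4A6, COL5A2, COL8A1, COL9A2, COL11A2, COL27A1, the transmembrane chains, HSPA5 and PCOLCE were named after their values were seen. Members, lists and rules were chosen with earlier results of these data known.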

Additional observations from a re-analysis of the deposited data

How the results depend on the processing

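Of 265 values of the 17 tested collagen chain genes under the alternatives, 212 kept their direction and their side of the threshold, 27 lost a call, 20 gained one and 6 changed sign. This tally includes the block with crossed numbers described below, which was chosen after seeing the data. With no alternative, 7 chain genes fell and 0 were called higher, and 13 pathway genes fell and 1 rose. With no filter on low values 2 chain genes and 9 pathway genes were called lower (1.57% of all genes), and prior degrees of freedom fell to 2.22 from 3.78. Under median-ratio scaling the prior degrees of freedom rose to 72.4. With the replicate block, or with 1 WT library left out, they were infinite, so p-values there rest on variance pooled over genes. At an FDR below 0.001 with at least 2-fold change, limma called 0 chain genes and 0 pathway genes lower and 0 higher. COL5A2 was the 1 chain gene called higher with the GC trend removed, under median-ratio scaling and under quantile normalization. In these fits 7.23%, 3.93% and 4.34% of all tested genes were called higher, in that order. Removing the GC trend gave 10 chain genes and 26 pathway genes called lower, where 12.6% of all tested genes were lower and 7.23% higher. For ZCCHC4 the log2 fold change came to -1.92 with a pseudocount of 0.1 (adjusted p = 0.0551 from limma), -1.48 with no filter on low values (0.115) and -1.48 at the FDR below 0.001. Signs changed for COL16A1, to 0.04 under quantile normalization. Removing the GC trend brought COL27A1 to -0.053 and COL9A2 to -0.14. Leaving out each library in turn, which assumes that the lone library varies like the other group, gave 2 to 9 chain genes called lower, 0 to 1 called higher and 10 to 19 pathway genes called lower. ZCCHC4 then ranged from -1.81 to -1.15 and COL9A2 from -0.074 to 0.104. Without WT replicate 1 the chain genes called lower were 2, without WT replicate 2 they were 3, without ZCCHC4 KO1 replicate 1 they were 6 and without ZCCHC4 KO1 replicate 2 they were 9, beside 2.55%, 3.35%, 4.21% and 9.67% of all tested genes. The causes of these changes were not tested.

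Replicate numbers are shared by the groups, but same-numbered libraries deviated from their group means in opposite directions (Pearson correlation over genes -0.787), so the numbers were not taken as pairs. With the replicate number as a block, 5 chain genes and 14 pathway genes were called lower, 0 and 1 higher (3.31% and 0.998% of all tested genes), and COL4A1 and COL4A2 lost their calls. With the block and the GC trend removed, 9 chain genes and 22 pathway genes were called lower and 1 chain gene higher (9.09% and 4.82% of all tested genes), with log2 fold changes of -0.053 for COL27A1 and -0.14 for COL9A2. A block with crossed numbers, chosen after seeing the data, gave 11 chain genes and 38 pathway genes lower and 2 and 6 higher, where 27.8% of all tested genes were lower and 21.5% higher.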
